A study of Mus musculus with 18 samples.

Results

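The probes described here are those of the T-cell receptor genes on an Agilent whole-genome mouse array. A probe was taken where its gene name in the array design begins with the symbol of a receptor chain (Tcra, Tcrb, Tcrd or Tcrg, or the newer segment names Trav, Trbc and the like). This rule found 19 probes under 8 gene names, of 43426 probes under 25888 gene names in all. They comprise 4 alpha probes (all Tcra), 8 beta probes (Tcrb-V13, Tcrb-V8.2 and Tcrb-J) and 7 gamma probes (Tcrg, Tcrg-C, Tcrg-V2 and Tcrg-V5), and 0 delta probes. RNA came from the thymus of C57BL/6 mice, taken 2 weeks after they had received either a monoclonal antibody against DLL4, a Notch ligand, or its isotype control; neither the age of the mice nor any engineered allele is named. Total thymocytes were measured on 4 control and 3 anti-DLL4 arrays. The CD4-CD8- sort, called DN, was measured on 3 arrays for each antibody. DN1, the CD44+CD25- part of that sort, was measured on 2 control and 3 anti-DLL4 arrays. The series' design text counts 4 animals per antibody and 3 control thymocyte samples against 4 in the labels, and nothing ties an array to an animal, so the p-values measure the spread between these samples, which may be partly technical.

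Each T cell carries a receptor of an alpha and a beta chain or of a gamma and a delta chain. Each chain joins a variable part, assembled by recombination from V, J and, for beta and delta, D segments, to a constant part that is shared by all receptors using that constant gene. Beta, gamma and delta genes recombine at the DN stages of thymic development, and alpha genes mainly at the later double-positive stage, when CD4 and CD8 are both present. Constant genes can also be transcribed before their locus has recombined, so a constant-region signal does not by itself show a finished receptor chain. DLL4 on thymic epithelium engages Notch1 on incoming progenitors, and this signal is needed for entry into the T lineage.

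The gene name given to a probe did not always match where it lies, and the printed sequences show what was measured. Positions are those of the mm8 build, as the files give them, and start and end can span an intron. Of the 171 pairs of member probes, 1 pair shared a run of 20 or more identical bases. This pair was A_51_P484332 and A_52_P112591, both Tcra constant-region probes on the plus strand at chr14:53178778-53181001 and chr14:53180136-53181030. Capitals mark the 26 bases they have in common, which lie at positions 35 to 60 of the first, counted from its 5′ end. The aligned stretch was 31 bases long with 30 identical and carried the substitution C34T, so these probes read the same exon junction and count as near-repeats of one measurement.
A_51_P484332: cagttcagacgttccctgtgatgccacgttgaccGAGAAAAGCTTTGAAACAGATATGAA
A_52_P112591: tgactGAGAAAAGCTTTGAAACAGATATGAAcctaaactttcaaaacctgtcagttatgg
At the beta locus, 3 probes named Tcrb-V13 lie in a constant gene and 3 in or near V segments between 319 and 411 kb upstream of A_51_P407832, so the name covers different parts of the chain. The first sequence below is from the constant gene (chr6:41476339-41476398, plus strand), and the next pair are from V segments (chr6:41065152-41065211 and chr6:41071176-41071235, plus strand).
A_51_P407832: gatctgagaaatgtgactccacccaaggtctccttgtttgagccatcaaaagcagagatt
A_52_P184629: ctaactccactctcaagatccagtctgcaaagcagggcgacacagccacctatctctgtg
A_52_P557517: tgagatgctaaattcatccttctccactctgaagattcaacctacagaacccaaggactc
At the gamma locus, the name Tcrg covers a constant gene and a V segment that lie 31.6 kb apart on the minus strand. The constant-region probe is at chr13:19312531-19312590 and the V-segment probe at chr13:19344210-19344269.
A_51_P354614: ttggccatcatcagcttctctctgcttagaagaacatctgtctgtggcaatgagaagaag
A_52_P200125: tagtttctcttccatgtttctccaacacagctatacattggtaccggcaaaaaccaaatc

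By position and description, 10 of the 19 probes lie in constant genes (3 alpha, 3 beta and 4 gamma), 7 in or near V segments and 2 elsewhere. The probe named Tcrb-J, A_52_P1078023, lies 484 kb upstream of the beta constant gene and 20 bases from a probe described as beta variable 13, and is treated as a V-segment probe. The Tcra probe A_52_P480620 lies 20.2 kb upstream of the alpha constant probes, and the Tcrg-V2 probe A_52_P526485 lies 1.61 kb from a gamma constant probe; neither was counted as constant or variable. The gamma probes A_51_P429241 and A_51_P354614 are adjacent, with 0 bases between them. Probes of one locus share transcripts and are not independent. The beta and gamma loci each hold constant genes with closely similar coding sequence, and which of them a probe also binds was not tested.

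Levels are the log2 of the processed spot intensity minus the 75th percentile of that array's spots, controls left out, so 0 is that percentile and 1 unit is a factor of 2. Levels of different receptor probes are not compared with each other. Summed levels of the marker lists weigh each gene by the intensity of its probe. Differences between groups are log2 differences after subtracting the median difference of all probes tested, which was -0.42 for anti-DLL4 against control in thymocytes, -0.65 in DN cells and -0.03 in DN1 cells. This median was 0.35 for control DN cells against thymocytes and -0.66 for control DN1 against DN cells. A probe passed where its Benjamini-Hochberg adjusted p in limma, over all probes tested and before that median was subtracted, was under 0.05. Of the 19 probes 18 could be tested; the Tcrb-V13 probe A_52_P372418 was not well above background on any of the 18 arrays. No member was saturated or marked as an outlier on any array. The 75th percentile was 260.2, 337.9 and 675.5 intensity units in control DN arrays and 887.7, 1077 and 741.3 in anti-DLL4 DN arrays, so array strength moved with the antibody there, and its part in the DN results was not tested. In thymocytes and DN1 cells the strengths of the antibody groups overlapped. Control DN1 arrays, at 2643 and 1832, were all stronger than control DN arrays, and the part of this in the comparison of those populations was not tested. Control thymocyte arrays, at 524, 685.9, 2169 and 2468, were mostly stronger than control DN arrays. The part of this in the comparison of control DN cells with thymocytes was not tested either.

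The Tcra constant probes were highest in control thymocytes. A_51_P484332 read 4.54, 2.94, 3.96 and 2.83 in control and 2.14, 2.57 and 2.39 in anti-DLL4 thymocytes. Its DN values were 0.26, -0.27 and -1.13 in control against 0.45, 0.40 and 0.30 in treated arrays. Its DN1 values were 1.86 and 2.06 against 0.32, -0.37 and -0.10. Control thymocytes thus lay above every other group on this probe, and control DN1 cells above control DN cells. A_52_P112591, which shares its junction, gave 2.79, 1.99, 2.51 and 1.60 in control and 0.95, 1.04 and 0.92 in anti-DLL4 thymocytes. DN arrays gave -1.46, -2.04 and -2.39 in control and -1.07, -0.98 and -1.25 in anti-DLL4 arrays, and its DN1 values 0.45 and 0.84 against -1.26, -1.64 and -1.81. The order of the group means was the same on both probes. The probe farther toward the transcript's end, A_51_P484329, read 1.99, 3.74, 2.21 and 1.30 in control and 2.01, 1.68 and 1.21 in anti-DLL4 thymocytes. DN arrays read -0.44, -0.05 and -0.24 in control against 0.15, 0.27 and -0.17 in treated arrays. Its DN1 values were 0.84 and 1.81 against 1.16, 0.04 and -0.40. On this probe the antibody groups overlapped in each population.

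Between control populations, all 3 Tcra constant probes were lower in DN cells than in thymocytes, where 1.13% of all probes passed the test and 0.758% passed it as lower. The difference was -4.54 ± 0.42 (SE, 3 against 4 arrays) for A_52_P112591, with an adjusted p of 0.00072 by limma. For A_51_P484332 it was -4.30 ± 0.50 (adjusted p = 0.00279 by limma) and for A_51_P484329 -2.91 ± 0.57 (adjusted p = 0.0431 by limma). In control DN1 cells A_52_P112591 was higher than in control DN cells by 3.27 ± 0.50 (adjusted p = 0.0194 by limma, 2 against 3 arrays), the 1 member that passed in a comparison where 1.1% of all probes did, 0.918% as higher. Its near-repeat A_51_P484332 gave 3.00 ± 0.59 there (adjusted p = 0.0726 by limma). The 4 alpha probes were above 0 in this comparison under each scaling tried. With slide as a term in the model the DN against thymocyte differences of A_52_P112591 and A_51_P484332 were -4.49 and -4.20 and no longer passed (adjusted p = 0.0583 and 0.0902 by limma), and the call of A_51_P484329 was lost without 13 of the 18 arrays in turn (up to 0.147). The DN1 against DN call was lost without DN control replicate 2 (adjusted p = 0.0781 by limma) or either DN1 control replicate (0.17 and 0.239), with normexp background correction (0.472), slide (0.119) or these arrays alone (0.284).

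**Figure D1:**
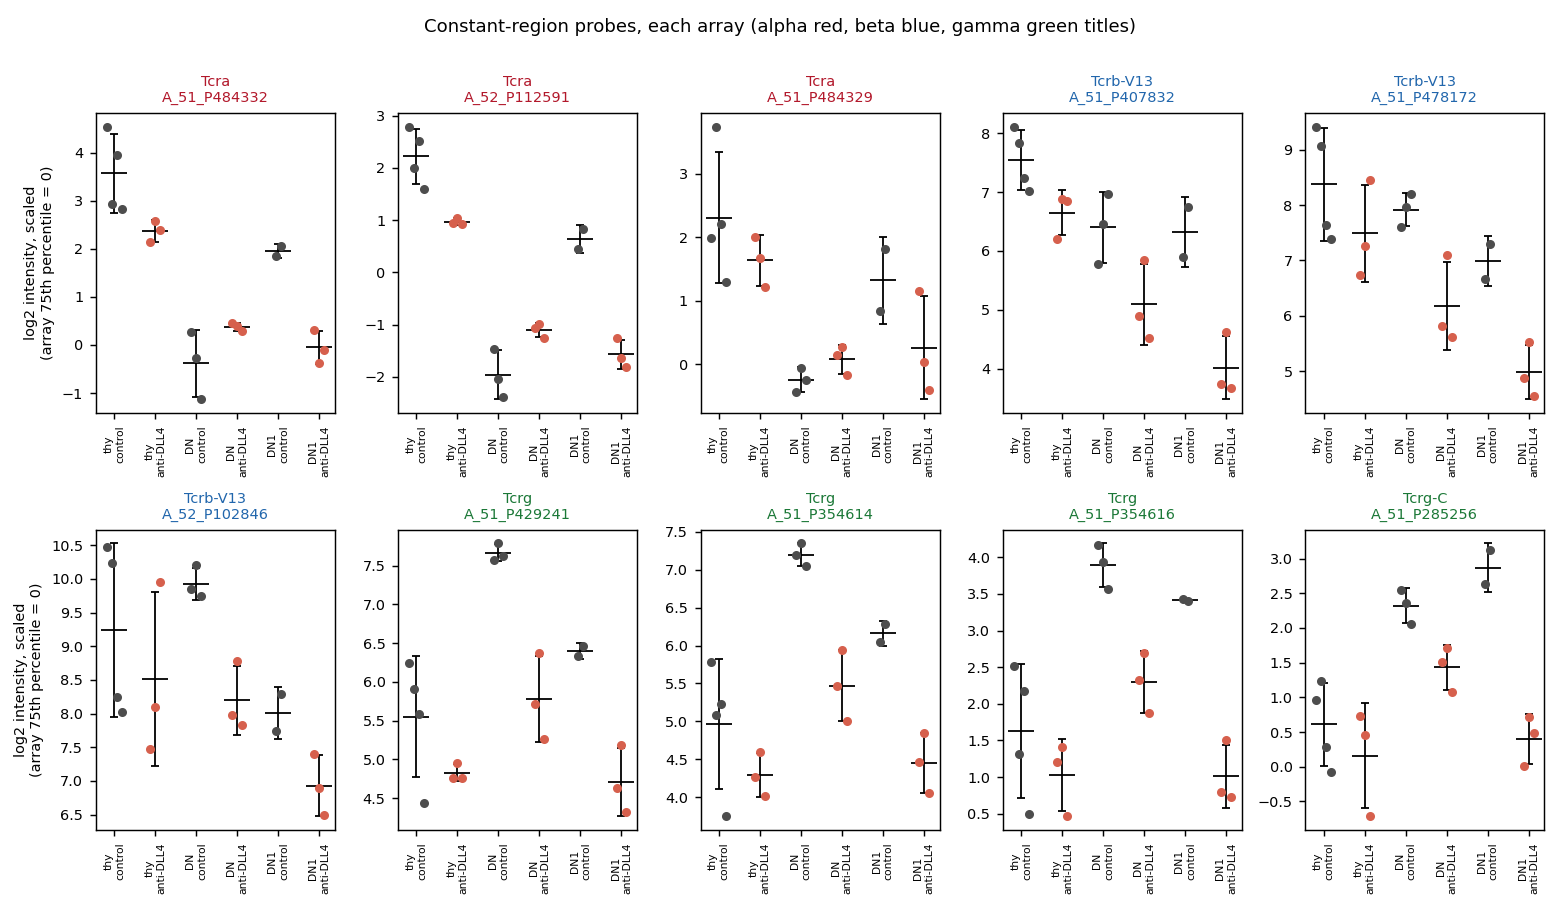
Scaled log2 intensity (y axis, array 75th percentile at 0) of the 10 constant-region probes in each of the 18 arrays, by group (x axis; thy is total thymocytes); points are arrays, grey for control and red for anti-DLL4, and bars are the mean ± SD. On A_51_P484332 the 4 control thymocyte arrays lie between 2.83 and 4.54, while on the gamma probe A_51_P429241 the 3 control DN arrays, at 7.58 to 7.79, lie above all others.

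Anti-DLL4 did not change the Tcra constant probes past the threshold in any population, and the sign of the difference was not the same in all 3. A_52_P112591 differed by -0.83 ± 0.42 in thymocytes (adjusted p = 0.173 by limma), 1.51 ± 0.45 in DN cells (adjusted p = 0.212 by limma) and -2.18 ± 0.50 in DN1 cells (adjusted p = 0.163 by limma). All treated arrays lay below all control arrays on it in thymocytes and DN1 cells and above them in DN cells. Such separation was found for 8.99%, 9.64% and 9.7% of all probes in that order. On the scaled levels themselves, without subtracting the median of all probes, the DN difference was 0.86, and with normexp background correction it was -0.14. Under quantile normalization A_52_P112591 passed in both sorted populations, at 1.35 in DN cells and -2.23 in DN1 cells (adjusted p = 0.0419 and 0.0341 by limma). A_51_P484332 gave -0.78, 1.41 and -1.98 in the same order, with adjusted p of 0.274, 0.341 and 0.39 by limma. A_51_P484329 gave -0.25, 0.97 and -1.03 (adjusted p = 0.603, 0.741 and 1 by limma). The 3 constant probes were above 0 in DN cells, relative to all probes, under each scaling tried. Array values of the remaining alpha probe, A_52_P480620, ranged from -3.04 to 2.47 in control thymocytes alone, and its treatment differences were 0.96 ± 1.27, -0.61 ± 1.35 and -1.31 ± 1.51.

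The beta constant probes showed a smaller contrast between control populations. A_51_P407832 read 8.11, 7.84, 7.23 and 7.01 in control and 6.21, 6.88 and 6.85 in anti-DLL4 thymocytes. In DN cells it had 5.77, 6.46 and 6.96 against 4.90, 5.85 and 4.52. In DN1 cells it had 5.89 and 6.74 against 3.74, 4.63 and 3.67. Anti-DLL4 DN1 cells were the lowest group on average, and control and treated DN arrays overlapped. A_51_P478172, in later exons of the same gene, gave 9.42, 9.07, 7.64 and 7.39 in control and 6.74, 7.26 and 8.45 in anti-DLL4 thymocytes. In DN cells it had 7.60, 7.96 and 8.20 against 5.82, 7.10 and 5.61, and in DN1 cells 6.67 and 7.30 against 4.87, 5.52 and 4.55. Treated arrays lay below control arrays in both sorted populations on this probe and overlapped them in thymocytes. Such separation was found for 21.8% of all probes in DN and 9.64% in DN1 cells. A_52_P102846, nearest the transcript's end, read 10.48, 10.23, 8.24 and 8.02 in control and 7.47, 8.10 and 9.96 in anti-DLL4 thymocytes. DN arrays read 9.85, 10.21 and 9.75 in control and 7.98, 8.78 and 7.83 in anti-DLL4 arrays, and its DN1 values 7.74 and 8.29 against 7.40, 6.89 and 6.50. Here too the sorted populations separated by antibody and the thymocytes did not. Thymocyte levels of this probe moved with array strength. They were 10.48, 10.23 and 9.96 on arrays with a 75th percentile of 524, 685.9 and 442.8. On arrays at 2169, 2468, 4295 and 2857 they were 8.24, 8.02, 7.47 and 8.10. A_51_P478172 was also higher on the weaker thymocyte arrays. The part of array strength in these thymocyte values was not tested.

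No beta constant probe passed the test in a treatment comparison. The differences of A_51_P407832, A_51_P478172 and A_52_P102846 in thymocytes were -0.48, -0.47 and -0.31 (adjusted p from 0.442 to 0.64 by limma). For DN cells they were -0.66, -1.10 and -1.09 (from 0.115 to 0.143), and for DN1 cells -2.27, -1.97 and -1.05 (from 0.273 to 1). In thymocytes A_52_P102846 turned to 0.04 under quantile normalization, and in DN cells A_51_P407832 turned to 0.42 and A_51_P478172 came to 0.00 under normexp. Between control DN cells and thymocytes the beta constant probes gave -1.50, -0.82 and 0.34, with adjusted p of 0.225, 0.682 and 0.579 by limma. For control DN1 against DN cells the smallest p of the beta probes was that of A_52_P102846, at -1.26 ± 0.83 (adjusted p = 0.244 by limma).

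The V-segment probes at the beta locus that could be tested separated the antibody groups in each population. A_52_P184629 read 3.81, 2.42, 3.14 and 2.68 in control and 1.11, 1.25 and 0.92 in anti-DLL4 thymocytes. DN arrays gave -0.12, 0.05 and 0.48 against -2.25, -0.79 and -2.56. Its DN1 values were -1.10 and 0.33 against -2.43, -2.87 and -1.86. Every treated array lay below every control array of its population. A_52_P557517 gave 3.36, 2.15, 3.20 and 2.71 in control and 1.58, 1.89 and 0.99 in anti-DLL4 thymocytes. Its DN values were -0.04, 0.16 and 0.82 against -2.45, -1.28 and -3.18, and its DN1 values 0.02 and 0.33 against -2.10, -1.76 and -3.53, again with no overlap. The probe named Tcrb-J, A_52_P1078023, read 1.48, 0.96, 1.10 and 1.24 in control and -0.25, 0.48 and -1.62 in anti-DLL4 thymocytes. In DN cells it had -1.36, -1.10 and -1.03 against -3.47, -2.48 and -3.30, and in DN1 cells -1.81 and -0.83 against -4.09, -4.65 and -5.79. Tcrb-V8.2, given here after its values were seen, read 1.40, 1.04, -0.09 and 1.81 in control and -0.45, -1.32 and -3.03 in anti-DLL4 thymocytes. Its DN values were 0.10, 1.16 and 1.58 against -1.95, -2.14 and -2.86, and its DN1 values -0.73 and 0.79 against -3.68, -2.36 and -6.64. On all 4 probes treated arrays lay wholly below control arrays in thymocytes, DN and DN1 cells, as for 8.99%, 21.8% and 9.64% of all probes.

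Of these, A_52_P557517 was lower after anti-DLL4 in DN cells, by -1.97 ± 0.61 (adjusted p = 0.0267 by limma, 3 against 3 arrays); 3.72% of all probes passed there and 1.39% as lower. The same probe gave -0.94 ± 0.57 in thymocytes and -2.60 ± 0.68 in DN1 cells (adjusted p = 0.277 and 0.251 by limma). In DN1 cells the Tcrb-J probe had the smallest p of the beta members, at -3.49 ± 0.66 (adjusted p = 0.0522 by limma). It passed there under quantile normalization (0.0375) and without thymocyte anti-DLL4 replicate 2 or 3 (0.0447 and 0.0289), and had an adjusted p of 1 under normexp. Its differences were -1.24 ± 0.55 in thymocytes and -1.28 ± 0.59 in DN cells. A_52_P184629 differed by -1.50 ± 0.54, -1.36 ± 0.58 and -1.97 ± 0.65 in thymocytes, DN and DN1 cells, with adjusted p of 0.101, 0.0653 and 0.494 by limma. Tcrb-V8.2 gave -2.22 ± 0.89, -2.62 ± 0.95 and -4.23 ± 1.06, with adjusted p of 0.173, 0.0668 and 0.227 by limma. Between control populations A_52_P184629 and A_52_P557517 were lower in DN cells than in thymocytes, by -3.23 ± 0.54 and -2.90 ± 0.57 (adjusted p = 0.0186 and 0.0426 by limma), while Tcrb-V8.2 gave -0.45 ± 0.89 (adjusted p = 0.963 by limma). The DN call of A_52_P557517 was lost without DN control replicate 1 or 2 or without DN anti-DLL4 replicate 1 or 3 (adjusted p of 0.052, 0.0751, 0.0929 and 0.121 by limma) and with median centring (0.15), slide in the model (0.0851) or the DN arrays alone (0.118); under normexp its difference was -0.84. The control call of A_52_P184629 was lost without thymocyte control replicate 1 or 3 or DN control replicate 1 or 2 (adjusted p of 0.0501 to 0.0969 by limma), and that of A_52_P557517 without 12 of the 18 arrays in turn, with an adjusted p of up to 0.179 by limma. Both were also lost with slide in the model (adjusted p = 0.147 and 0.169 by limma), replicate number in it (0.0585 and 0.0961) or these arrays alone (0.0823 and 0.106).

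**Figure D2:**
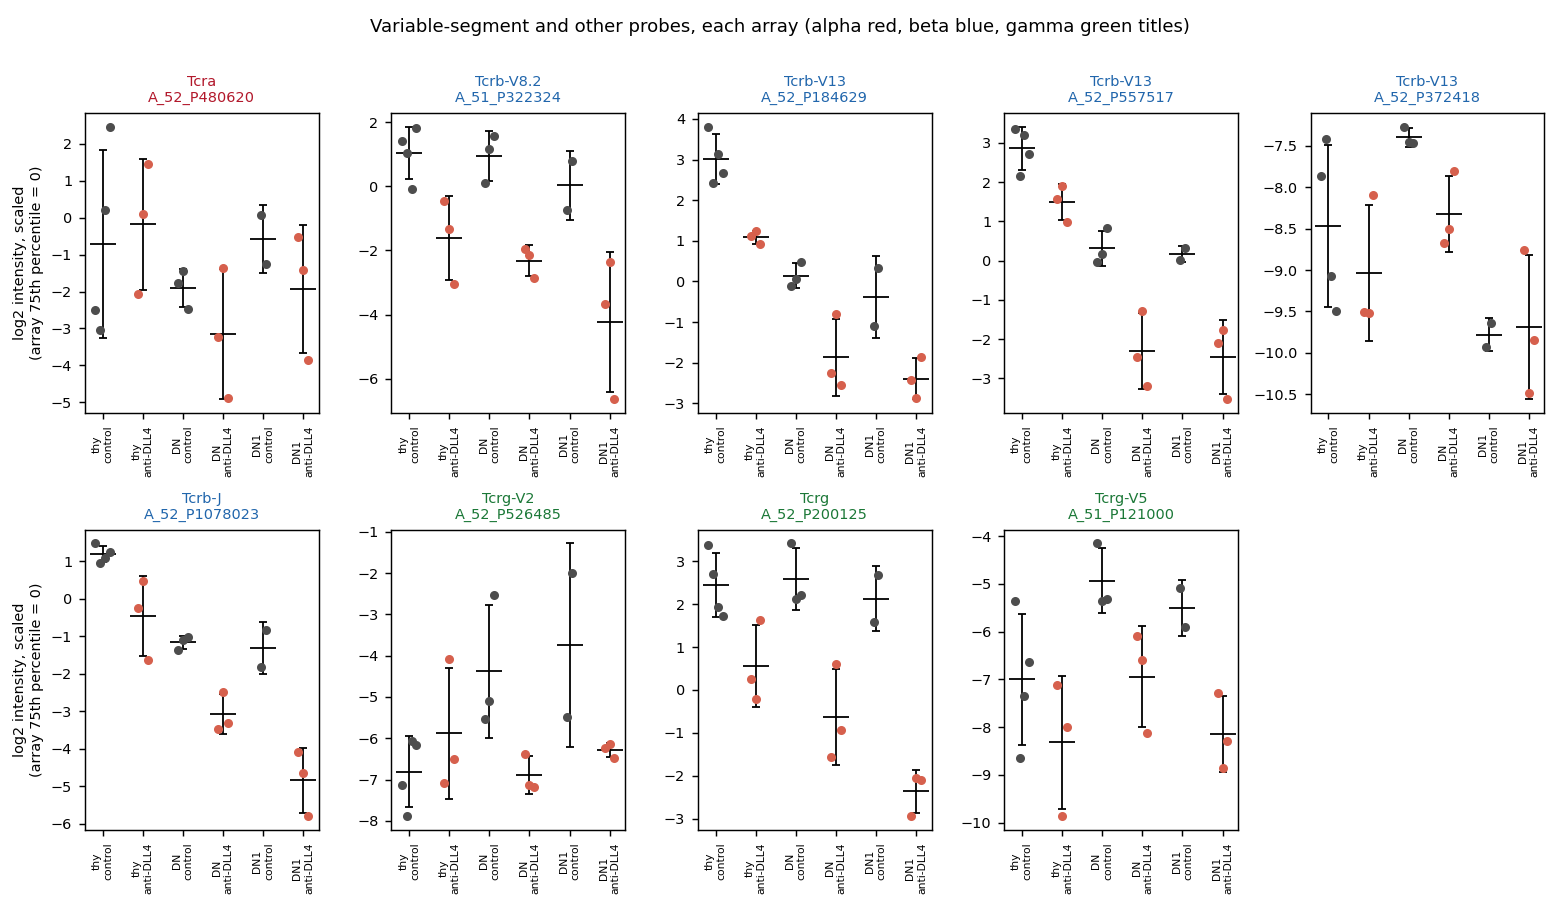
Scaled log2 intensity (y axis, array 75th percentile at 0) of the 9 probes outside constant genes in each array, by group (x axis), drawn as for the constant-region probes, with points for arrays and bars for the mean ± SD. On A_52_P200125 the 3 anti-DLL4 DN1 arrays lie between -2.94 and -2.05, below the 2 control arrays at 1.59 and 2.67.

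Gamma constant probes had their highest levels in control DN or DN1 cells. A_51_P429241 read 6.24, 5.91, 5.59 and 4.44 in control and 4.76, 4.96 and 4.76 in anti-DLL4 thymocytes. In DN cells it had 7.58, 7.79 and 7.63 against 5.71, 6.37 and 5.27. In DN1 cells it had 6.33 and 6.47 against 4.63, 5.19 and 4.32. The adjacent A_51_P354614 gave 5.78, 5.08, 5.23 and 3.75 in control and 4.27, 4.59 and 4.01 in anti-DLL4 thymocytes. Both probes thus placed control DN arrays above every other array. In DN cells A_51_P354614 had 7.19, 7.35 and 7.05 against 5.47, 5.94 and 5.0, and in DN1 cells 6.05 and 6.28 against 4.46, 4.84 and 4.05. A_51_P354616, which spans an intron of the same gene, read 2.52, 1.31, 2.18 and 0.50 in control and 1.20, 1.41 and 0.47 in anti-DLL4 thymocytes. Its DN values were 4.17, 3.93 and 3.56 against 2.33, 2.70 and 1.87, and its DN1 values 3.43 and 3.40 against 0.80, 1.51 and 0.73. On this probe too control DN arrays were the highest. Tcrg-C, A_51_P285256, on the plus strand 37.6 kb from the other constant gene, gave 0.96, 1.24, 0.29 and -0.07 in control and 0.73, 0.45 and -0.71 in anti-DLL4 thymocytes. DN arrays read 2.55, 2.36 and 2.06 against 1.51, 1.71 and 1.08. Its DN1 values were 2.63 and 3.12 against 0.01, 0.72 and 0.48. On the 4 probes treated arrays lay below control arrays in both sorted populations and overlapped them in thymocytes. Over all probes, 21.8% lay wholly lower in DN cells and 9.64% in DN1 cells.

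In control cells, 3 gamma constant probes were higher in DN cells than in thymocytes, where 0.373% of all probes passed as higher. The differences were 1.90 ± 0.51 for A_51_P354616, 1.88 ± 0.49 for A_51_P354614 and 1.77 ± 0.48 for A_51_P429241, with adjusted p of 0.0467, 0.0406 and 0.0438 by limma. Tcrg-C gave 1.36 ± 0.48 (adjusted p = 0.0898 by limma). Control DN arrays were mostly weaker than control thymocyte arrays, and the part of this in these differences was not tested. With normexp the 3 differences were 0.44, 0.42 and 0.29, that of Tcrg-C was -0.04 and none passed (adjusted p = 0.0601, 0.0567 and 0.0651 by limma for the 3). None passed with median centring (0.13, 0.126 and 0.149) or with slide in the model (0.166, 0.166 and 0.168). The calls were lost without 14, 11 and 12 of the 18 arrays in turn, DN control replicates 1 and 2 among them, with adjusted p of up to 0.181, 0.175 and 0.184 by limma. The direction of A_51_P354616, A_51_P354614 and A_51_P429241 was thus opposite to that of the Tcra constant probes, which lay between -5.06 and -2.24 under the scalings tried. That of Tcrg-C was not opposite with normexp, at -0.04.

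After anti-DLL4 no gamma constant probe passed. In DN cells A_51_P429241 differed by -1.24 ± 0.51 (adjusted p = 0.0522 by limma), A_51_P354614 by -1.08, A_51_P354616 by -0.94 and Tcrg-C by -0.24. In DN1 cells the same probes gave -1.65, -1.68, -2.37 and -2.44, with adjusted p of 0.55, 0.557, 0.249 and 0.177 by limma. In thymocytes they gave -0.30, -0.25, -0.18 and -0.02. The signs in thymocytes and DN cells were not stable: A_51_P429241 and A_51_P354614 turned to 0.08 and 0.10 in thymocytes under quantile normalization, and A_51_P354614, A_51_P354616 and Tcrg-C turned to 0.01, 0.15 and 0.76 in DN cells under normexp.

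The V-segment probe A_52_P200125, named Tcrg, passed in 2 of the 3 treatment comparisons, and no other member passed in more than 1. It read 3.37, 2.70, 1.94 and 1.73 in control and 0.25, -0.21 and 1.62 in anti-DLL4 thymocytes. In DN cells it had 3.42, 2.13 and 2.21 against -1.56, 0.61 and -0.93, and in DN1 cells 1.59 and 2.67 against -2.94, -2.05 and -2.09. No treated array reached a control array of its population, as for 8.99%, 21.8% and 9.64% of all probes in thymocytes, DN and DN1 cells. It was lower by -2.57 ± 0.70 in DN cells (adjusted p = 0.0186 by limma, 3 against 3 arrays) and by -4.46 ± 0.78 in DN1 cells (adjusted p = 0.0378 by limma, 3 against 2 arrays), where 0.109% of all probes passed and 0.0655% as lower. The thymocyte difference was -1.46 ± 0.65 (adjusted p = 0.186 by limma). Between control populations it did not show the pattern of the gamma constant probes, at -0.20 ± 0.65 for DN cells against thymocytes (adjusted p = 0.912 by limma), although this turned to 0.74 under quantile normalization. The DN1 call was lost without 11 of the 18 arrays in turn, among them each of the 5 DN1 arrays, with an adjusted p of up to 0.492 by limma, and was also lost with normexp (-3.52, adjusted p = 0.395 by limma), slide in the model (0.255) and the DN1 arrays fitted alone (0.33). The DN call was lost without DN control replicate 1 or DN anti-DLL4 replicate 1 or 3 (adjusted p = 0.085, 0.0929 and 0.0801 by limma), and with normexp (-1.44, 0.0572), median centring (0.0702), slide (0.0731) or the DN arrays alone (0.0984).

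The last pair of gamma probes were dim. Tcrg-V2 was well above background on 0 of 3 anti-DLL4 DN arrays and on 2 of 3 control DN arrays. Set against the lowest signal that is well above background, its control DN mean of -4.38 was at least 2.6-fold higher than in anti-DLL4 DN cells, whose measured mean was -6.89 (adjusted p = 0.122 by limma). The bound rested on DN control replicate 3, at -2.54, and was 1.37-fold without it. Tcrg-V5 was well above background on both control DN1 arrays and on 0 of 3 anti-DLL4 DN1 arrays, at least 4.93-fold higher in the controls, with measured means of -5.50 and -8.14 (adjusted p = 0.656 by limma), and 3.7-fold or 6.58-fold with 1 control array left out.

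**Figure D3:**
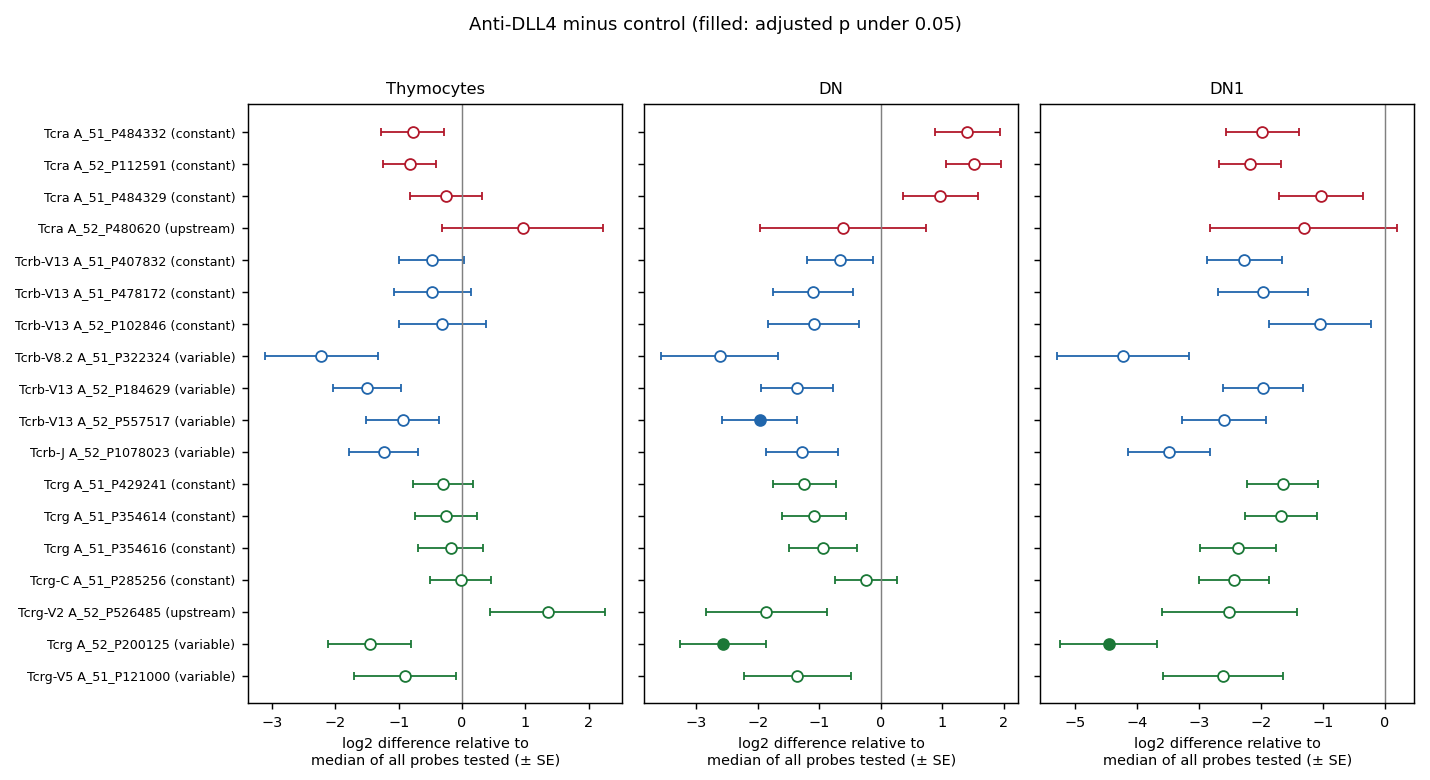
Differences between anti-DLL4 and control arrays (x axis, log2, relative to the median of all probes tested; bars are the SE from limma) for the 18 tested probes (y axis; alpha red, beta blue, gamma green) in thymocytes, DN and DN1 cells, with filled points for an adjusted p under 0.05. Filled points are A_52_P557517 and A_52_P200125 in DN cells, at -1.97 and -2.57, and A_52_P200125 in DN1 cells, at -4.46; the Tcra constant probes lie right of 0 in DN cells.

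Counted over all members, anti-DLL4 in thymocytes gave 0 of 18 passing by limma, against 1.16% of all probes, 0.232% as lower. At an unadjusted p under 0.05, 7 were lower and 0 higher (8.72% and 5.85% of all probes), 16 of 18 differences were below 0 and the median was -0.48. In DN cells 2 of 18 passed as lower (1.39% of all probes), and 13 were lower and 0 higher unadjusted (21.2% and 7.63% of all probes). The DN median was -1.09 and 15 of 18 were below 0, with the 3 Tcra constant probes above 0. In DN1 cells 1 of 18 passed as lower and 0 as higher (0.0655% and 0.0436% of all probes). Unadjusted, 15 were lower and 0 higher there (2.77% and 2.45% of all probes). The DN1 median was -2.22 and all 18 were below 0, from -4.46 to -1.03. Treated arrays lay wholly below control arrays for 8, 13 and 16 of the 18 in thymocytes, DN and DN1 cells, where 8.99%, 21.8% and 9.64% of all probes did so, and wholly above them for 2 in DN cells, where 9.7% did. These counts include Tcrg-V2 in DN cells and Tcrg-V5 in DN1 cells. Each was well above background there on control arrays only, so the filter had fixed its direction and it adds no support. By locus, the DN1 medians were -1.65 for alpha, -2.27 for beta and -2.44 for gamma, and the DN medians 1.19, -1.28 and -1.24. Less RNA of a chain per cell and fewer cells with it cannot be told apart in these bulk samples.

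The median and the sign of the DN differences moved with the background correction. With normexp background correction the DN median was -0.04 and 10 of 18 were below 0, whereas in DN1 cells all 18 stayed below 0 under each scaling tried, with medians from -2.30 to -1.55. Tcrg-V5 is among the 18, with its DN1 direction fixed by the filter. Thymocytes had 13 to 16 of 18 below 0 under these scalings. Within slides, the 1 slide with both DN groups gave a median of -0.16 and 10 of 18 below 0. The 2 slides with both DN1 groups gave medians of -1.36 and -2.50, with 18 of 18 below 0 on each. The 3 slides with both thymocyte groups gave -0.60, -0.19 and -1.33.

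Whether the antibody acted differently between populations was tested as the difference of the treatment differences, and 0 members passed by limma, against 0.00616% of all probes for DN minus thymocytes (0.00308% higher and 0.00308% lower), 0.0909% for DN1 minus thymocytes (0.0147% and 0.0763%) and 0.146% for DN1 minus DN cells (0.0387% and 0.107%). At an unadjusted p under 0.05 these comparisons had 3, 5 and 2 members of 18, where 7.92%, 6.87% and 11% of all probes did. Of the 3, 2 were higher, both of them the near-repeat Tcra probes, and 1 was lower, where 3.74% and 4.18% of all probes were. The lower one was Tcrg-V2, which was tested in DN cells through its control arrays only. The 5 and the 2 were all lower, where 3.76% and 3.87% of all probes were. The value with the smallest p was that of A_52_P112591 for DN1 minus DN cells, at -3.51 ± 0.68 (adjusted p = 0.0889 by limma); it passed under quantile normalization (0.0108), median centring (0.0282) and without DN control replicate 3 (0.0487). For DN minus thymocytes it gave 2.31 ± 0.62 (adjusted p = 0.368 by limma). Beta and gamma members with the smallest p were A_52_P557517 (-1.06, adjusted p = 0.712 by limma) and Tcrg-V2 (-3.24, 0.545) for DN minus thymocytes. They were Tcrb-J (-2.22, adjusted p = 0.726 by limma) and Tcrg-C (-2.38, 0.558) for DN1 minus thymocytes, and Tcrb-J (-2.03, 0.491) and Tcrg-C (-2.01, 0.456) for DN1 minus DN cells. The DN and DN1 effects have no arrays in common.

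**Figure D4:**
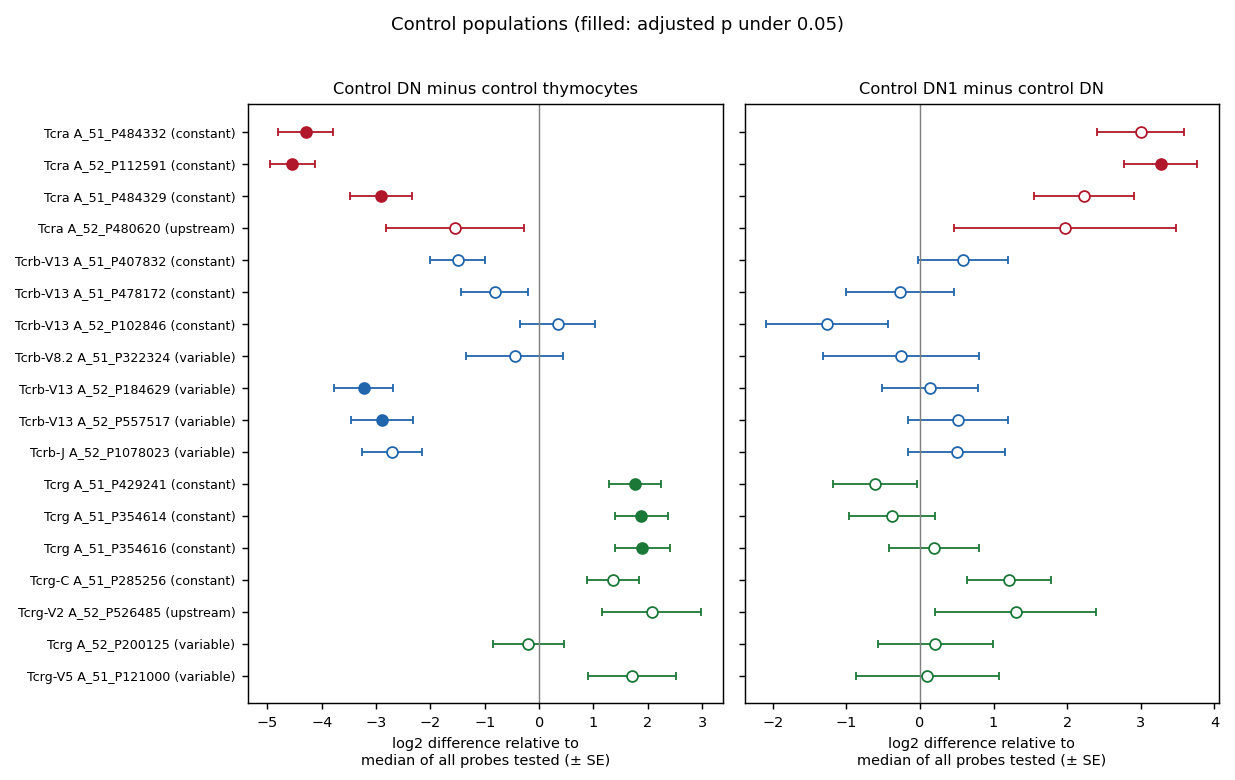
Differences between control populations (x axis, log2, relative to the median of all probes tested; bars are the SE from limma) for the 18 tested probes (y axis; alpha red, beta blue, gamma green), with filled points for an adjusted p under 0.05. In DN cells against thymocytes the 3 filled gamma points lie at 1.77 to 1.90 and the 3 filled Tcra points at -4.54 to -2.91.

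The array also holds 22 probes described as receptor chains under other gene names (12 alpha, 7 beta, 1 gamma and 2 delta), which the rule did not take. The delta probes were well above background on 3 and 0 of 18 arrays. One of the beta probes, A_51_P210310, lies in the other beta constant gene, 7470 bases upstream of A_51_P407832, and gave -0.58, -1.03 and -2.12 in thymocytes, DN and DN1 cells (adjusted p = 0.43, 0.102 and 0.437 by limma). In DN1 cells 2 of the 19 tested passed as lower (0.0655% of all probes), both beta probes (A_51_P459958 at -2.84 and A_52_P1158254 at -4.17), and 17 of 19 were below 0. In DN cells 0 of 17 passed by limma and 15 were below 0. In thymocytes 1 of 19 passed as lower (0.232% of all probes), the alpha probe A_52_P31751 at -3.91 ± 1.00 (adjusted p = 0.048 by limma). No probe outside the 19 shared 20 or more identical bases with a member.

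Genes whose products assemble with the receptor or carry its signal were read from a list of 18. After anti-DLL4, 2 of them passed as lower in DN cells, where 1.39% of all probes did. In DN cells Ptcra, which pairs with the beta chain before alpha is made, was lower after anti-DLL4 by -2.78 ± 0.90 and Themis, a thymocyte signalling protein, by -2.29 ± 0.75 (adjusted p = 0.0456 and 0.0405 by limma). The other 16 did not pass. Among them the CD3 chain genes Cd3d, Cd3e and Cd3g gave -1.03, -1.13 and -1.22. Of the 18 genes 7 were above 0 in DN cells, and the list's median was -0.55. They included Cd2, an adhesion receptor, at 2.78 ± 0.59 (adjusted p = 0.0576 by limma), and the kinase genes Fyn and Zap70 at 1.52 and 0.81. In DN1 cells 0 of 18 passed by limma, 12 were lower at an unadjusted p under 0.05 (2.77% of all probes) and all 18 were below 0, with a median of -1.98; Cd247, the CD3 zeta chain, had the smallest p at -3.06 ± 0.68 (adjusted p = 0.129 by limma). In thymocytes 0 of 18 passed by limma and 5 were lower at an unadjusted p under 0.05, against 8.72% of all probes. Of 10 genes for receptor gene recombination, 0 passed by limma in any treatment comparison, and 3 were lower at an unadjusted p under 0.05 in thymocytes and 0 in DN and DN1 cells. The list's median was -0.24, 0.63 and 0.12 in thymocytes, DN and DN1 cells, with 8, 3 and 4 of the 10 below 0, where 8.72%, 21.2% and 2.77% of all probes were lower at an unadjusted p under 0.05. In the same order Rag1 gave -1.94, -0.50 and -0.19, and Rag2, with which it cuts the segments, -1.54, 1.14 and 1.29. Dntt, which adds bases at the joints, gave -0.53, -0.65 and -0.96, and Lig4, the ligase of the joints, 0.76, 2.31 and 0.88.

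Markers of the double-positive stage and of other cells moved as well. Of 6 double-positive-stage genes 2 passed as lower after anti-DLL4 in DN cells, where 1.39% of all probes did. Among them was Ccr9, a chemokine receptor, at -2.73 ± 0.88 (adjusted p = 0.0461 by limma). In thymocytes and DN1 cells 0 passed by limma. At an unadjusted p under 0.05, 1 and 4 were lower there, against 8.72% and 2.77% of all probes. The log2 summed level of the 6 genes ran from 7.22 to 7.61 in control and from 5.13 to 5.68 in anti-DLL4 DN arrays. In DN1 arrays it ran from 7.08 to 7.34 against 4.88 to 6.04. Most of the sum in control DN arrays was Cd8b1, a CD8 chain gene, at 6.97 ± 0.16 (SD, n = 3), which gave 3.83 ± 0.23 (SD, n = 3) after anti-DLL4. Cd1d1 of the same list differed the other way in DN cells, at 2.09 ± 0.64 (adjusted p = 0.152 by limma). Cd8a, whose protein the DN gate selects against, had means of 3.09 ± 0.80 (SD, n = 3) in control DN and 4.10 ± 0.70 (SD, n = 2) in control DN1 cells, against 6.86 ± 0.68 (SD, n = 4) in control thymocytes. Of 8 B-cell genes 5 were higher after anti-DLL4 in thymocytes, 7 in DN cells and 0 in DN1 cells, where 0.925%, 2.33% and 0.0436% of all probes were. The log2 summed level of this list ran from 4.50 to 5.58 against 6.55 to 8.50 in thymocytes, 5.27 to 5.52 against 9.25 to 9.72 in DN cells, and 7.85 to 8.63 against 8.57 to 9.26 in DN1 cells. Pax5, a defining gene of B cells, reached well above background on 0 of 4 control thymocyte arrays. Of 9 NK and innate lymphoid genes 3, 4 and 0 were higher, with sums of 3.86 to 5.43 against 7.30 to 7.84 in thymocytes, 3.17 to 3.96 against 6.25 to 6.48 in DN cells and 6.48 to 6.52 against 5.07 to 6.64 in DN1 cells. Of 8 dendritic cell and macrophage genes 1, 4 and 0 were higher, with sums of 3.85 to 5.17 against 5.60 to 5.81, 0.57 to 1.30 against 4.69 to 5.50 and 4.75 to 5.90 against 4.30 to 5.85. The gamma-delta T list had probes for 5 of its 8 genes, the others being not analysed here; Blk, which B cells also express, passed as higher in DN cells at 4.23 ± 0.59 (adjusted p = 0.00346 by limma). The other 4 did not pass in DN cells, where the list's median was -0.51 with 3 of 5 below 0; Cd163l1 gave 0.37, Zbtb16 -0.51, Maf -0.67 and Etv5 -0.72. The part of these markers in the receptor values was not tested.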

How the data were processed

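RNA had been amplified in 2 rounds and labelled with Cy3, per the labels' protocols, which can favour sequence near the 3′ end. The deposited spot values are an intensity that Agilent Feature Extraction 9.5.3.1 had background-subtracted and detrended within each array, per the file headers; flags, the mean signal and the local background were read from the same files. A deposited table for the series holds a linear ratio per probe and array, with column medians from 0.639 to 1.42. Its log2 values differed from scanner values centred per probe by a median of -0.0139 to 0.00275 per array and ran in the same direction; 69.7% to 70.7% of probes lay within 0.05, so the exact divisor stays unknown. It was used as an alternative.

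Spots of a probe were averaged. A limma 3.58.1 model of 6 group means was fitted in R 4.3.3 to the 38962 probes well above background on at least 2 arrays. A comparison tested probes well above background on at least 2 of its arrays, with Benjamini-Hochberg adjustment over all of them. The scripts were tested on simulated data, with normal noise of each probe's own spread and 82 to 95 tested probes changed at each size. Of probes changed by -2, 9.57%, 1.15% and 0% passed in thymocytes, DN and DN1 cells. At -4 the shares were 48.9%, 48.8% and 28.4%. Among probes that passed, 5.36%, 10.9% and 10% had not been changed. The simulation held no slide or array effects. It changed fewer probes than the 404 and 1273 that passed in thymocytes and DN cells. These shares therefore do not carry over to the data. A difference that did not pass may still be present at these group sizes. The members and lists were chosen with earlier results of these data known. Constant or variable roles were assigned from position and description after the files were read. Named members were every constant-region probe and, per locus, up to 5 others with the smallest p among those that passed in a treatment comparison (up to 3 in other comparisons), the 3 brightest in control thymocytes and, where none passed, the member with the smallest p. A list gene was read from its brightest probe; the values of 1 list gene are not reported here. Slides, of which 6 were used, were taken as batches. Alternatives were scaling, background correction, filters, slide and number as terms, the arrays fitted, the deposited table and leaving out each array.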

Additional observations from a re-analysis of the deposited data

Results flagged for a closer look

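Of the 18 tested probes, 2 had treated arrays wholly apart from control arrays in opposite directions in different populations. These were the Tcra constant probes that share 26 bases. On scaled levels, without subtracting the median of all probes, A_51_P484332 differed by -1.20 in thymocytes, 0.76 in DN cells and -2.01 in DN1 cells, and A_52_P112591 by -1.25, 0.86 and -2.21. The test of the difference between the effects did not pass: adjusted p by limma was 0.516 and 0.368 for DN minus thymocytes, and 0.215 and 0.0889 for DN1 minus DN cells. The remaining Tcra constant probe, A_51_P484329, had overlapping arrays in each population. No control thymocyte array stood apart on any of the 19 probes by Dixon's test; the smaller groups were not tested.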

How the results depend on the processing

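Counts of members that passed were 0 in thymocytes and 0 for the effects in DN and DN1 cells minus that in thymocytes under every alternative run. In DN cells the 2 that passed became 4 with quantile normalization and 0 with median centring, slide as a term or the DN arrays alone. In DN1 cells the 1 became 3 with quantile normalization, 2 with the filter of every array of a group, and 0 with normexp, slide or the DN1 arrays alone. For control DN cells against thymocytes the 8 became 5 with normexp, 0 with slide and 2 with these arrays alone. For control DN1 against DN cells the 1 became 2 with quantile normalization or median centring and 0 with normexp, slide or these arrays alone. For the effect in DN1 minus DN cells the 0 became 1 with quantile normalization and 2 with median centring.

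Correlations between the deviations of same-numbered arrays ran from -0.22 to 0.27 for control and treated arrays. They were 0.34, 0.03 and 0.14 for control DN and thymocyte arrays and 0.35 and -0.18 for control DN1 and DN arrays. In no comparison were all of them over 0.1, so the numbers were not taken as pairs. With the replicate block the counts were 0 in DN1 cells, 3 for control DN cells against thymocytes and 0 for control DN1 against DN cells, beside 3 in DN cells and 0 in the rest. Leaving out each array in turn gave 0 to 4 in DN cells, 0 to 2 in DN1 cells, 2 to 10 for control DN against thymocytes, and 0 to 1 for control DN1 against DN cells and for the effect in DN1 minus DN cells. Without both dim DN control arrays, replicates 1 and 2, the counts were 0 in DN cells, 0 in DN1 cells, 2 for control DN against thymocytes and 0 for control DN1 against DN cells. The effect of A_52_P557517 in DN cells minus that in thymocytes, which had not passed (-1.06), turned to 0.49 with normexp. At 2 to 4 arrays a group, probes not well above background have bounds and no levels, and the deposited table changed no count of members that passed.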
